A study of Mus musculus with 6 samples.

Results

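The genes described here are 9 effectors of the interferon response, Ifit1, Ifit2, Ifit3, I830012O16Rik, Isg15, Usp18, Rsad2, Oasl2 and Oas1a, taken by symbol from a table of 18158 features. They were chosen because their levels were higher in drug-treated than in control hearts, so their own differences between the groups are given as a description, without a test. Ventricular RNA of 6 mice of the outbred CD1 stock was sequenced at 3 months of age. The Paro/Neo group is 3 mice injected intraperitoneally with the aminoglycoside antibiotics paromomycin and neomycin at 150 mg/kg, 2 times a day, for 14 days. The vehicle group is 3 mice injected daily with PBS over the same period. The labels do not say whether vehicle was also given 2 times a day, so the number of injections may differ between the groups along with the drug, and the parts of the 2 cannot be told apart. Each library is 1 heart, numbered 1 to 3 within its group, and holds RNA of all cell types of the ventricle. The series' design text sets the comparison in terms of suppressed activity of the transcription factors Meis1 and Hoxb13. The activity of neither factor was measured by these data.

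Interferons are secreted proteins that bind receptors on the cell surface. The receptor-bound kinases Jak1 and Tyk2 then switch on the transcription factor ISGF3, which contains Stat2 and Irf9. ISGF3 binds a DNA motif named the interferon-stimulated response element (ISRE) in front of many genes, among them those of antiviral proteins. The Ifit proteins bind foreign RNA or hold back its translation. Isg15 is a ubiquitin-like protein that is attached to other proteins, and Usp18 is the protease that takes it off again and also dampens signalling from the type I interferon receptor. Rsad2, known as viperin, is a radical SAM enzyme that makes a chain-terminating nucleotide. Oas1a makes a second messenger from ATP when it meets double-stranded RNA, and Oasl2 is an Oas-like protein with ubiquitin-like repeats.

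Of the 9 genes, 4 lie in 1 cluster on chromosome 19 (GRCm38, GENCODE M21 gene positions): Ifit2 at 34550694 to 34576419, Ifit3 at 34583531 to 34588731, I830012O16Rik at 34607970 to 34613401, and Ifit1 at 34640871 to 34650009, all on the forward strand. I830012O16Rik is the older name of Ifit3b, per RefSeq's synonyms. On chromosome 5 lie Oasl2, at 114896936 to 114912234, and Oas1a, at 120896256 to 120907521. Isg15 lies on chromosome 4 at 156199424 to 156200818, Usp18 on chromosome 6 at 121245906 to 121270917 and Rsad2 on chromosome 12 at 26442746 to 26456452. All 9 are annotated as protein-coding.

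Promoter sequences were searched for the ISRE core (GAAA, 2 bases of any kind, GAAA) and for GAS, TTCNNNGAA, a second element of interferon-responsive genes, on both strands and with overlapping matches counted. The windows ran from 250 bases before to 50 bases after each annotated start (RefSeq, GRCm38.p6). A window was present for 8 of the 9 genes, the exception being Usp18, and 6 of these 8 held at least 1 ISRE core: Ifit1, Ifit3, I830012O16Rik, Isg15, Rsad2 and Oas1a. Of all 32851 promoter windows, 3.44% held the ISRE core and 8.30% held GAS. The core is not particular to the 9 genes. Of the other pathway genes taken up below, 28 had a window and 6 held it: Ifit1bl1, Ifit1bl2, Oas1c, Oas1g, Oas3 and Stat2. A GAS match stood in a window of Ifit2 and in that of Oas1a. The windows of Ifit2 and Oasl2 held no ISRE core, which says only that these letters are not within them. The stretches that hold the cores are printed because they are the sequence most of the 9 genes share. They read 5′ to 3′ along the strand of the gene, with the cores in capitals, and a core on the opposite strand appears as TTTC, 2 bases, TTTC:
Ifit1, chr19:34640785-34640813, forward strand: TTTCACTTTCcagtctcagTTTCAGTTTC
Ifit3, farther core, chr19:34583363-34583392, forward strand: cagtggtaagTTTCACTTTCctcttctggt
Ifit3, nearer core, chr19:34583397-34583426, forward strand: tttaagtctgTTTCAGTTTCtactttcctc
Isg15, chr4:156200860-156200911, reverse strand: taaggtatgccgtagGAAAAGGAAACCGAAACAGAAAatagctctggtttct
Rsad2, chr12:26456548-26456587, reverse strand: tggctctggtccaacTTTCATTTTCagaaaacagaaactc
Oas1a, chr5:120907530-120907545, reverse strand: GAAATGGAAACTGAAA

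In Isg15, 3 cores overlap each other, the first beginning at position -78 from the start. Ifit1, Ifit3 and I830012O16Rik each hold 2 separate cores, and in all 3 genes the farther one reads TTTCACTTTC and the nearer one TTTCAGTTTC. Rsad2 holds 1 core, beginning at position -120, and the 2 overlapping cores of Oas1a begin at -20 and -14. RefSeq's gene models reach past the starts used here in Ifit3 (from 34583119), I830012O16Rik (from 34607530) and Oas1a (to 120907544). The cores of these genes thus lie within or overlap their own gene models, and those of Ifit1 lie within the models of Ifit1bl1 and Ifit1bl2. The 74 bases around the cores of Ifit3 and I830012O16Rik are identical, and in the best local alignment of their windows, which leaves out the ends, 259 of 274 positions agree, or 94.5%.

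**Figure D1:**
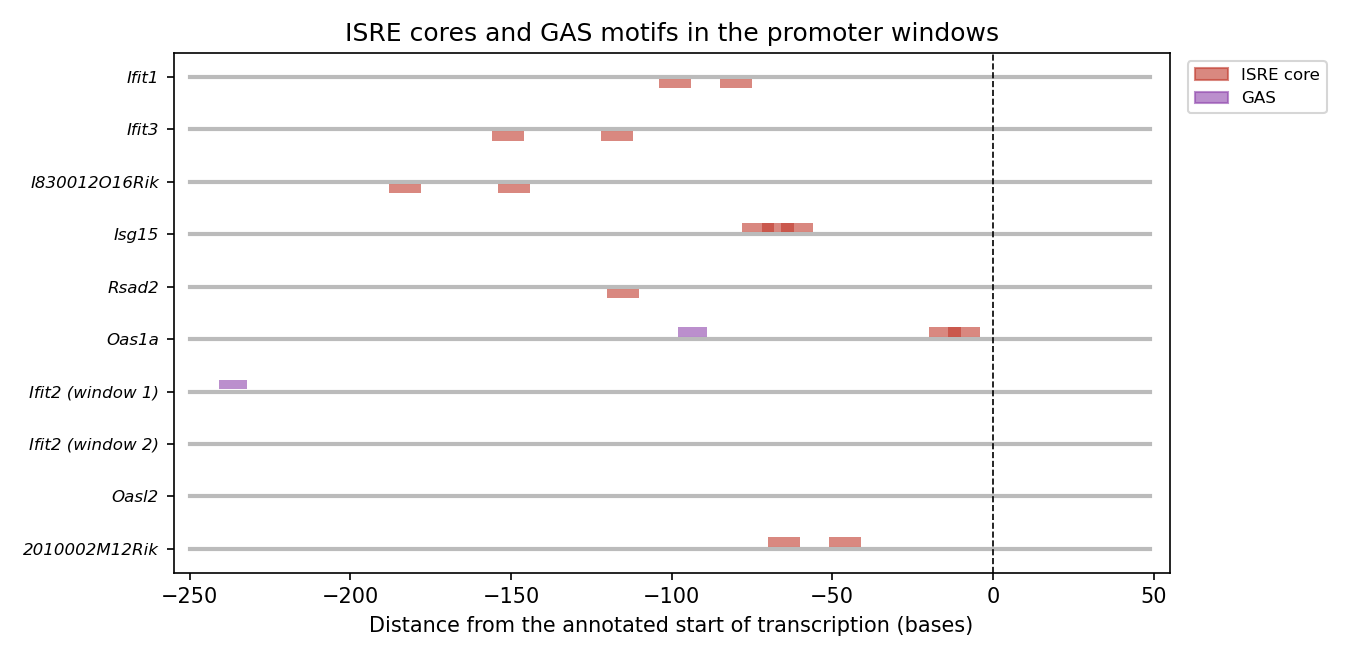
Positions of ISRE cores (red) and GAS motifs (purple) in bases from the annotated start of transcription (dashed line), on the gene's own strand above and on the opposite strand below each grey window. The cores of 6 of the 9 genes lie between positions -188 and -5, and the rows of Ifit2 and Oasl2 show none; 2010002M12Rik is a neighbour of Ifit1 that holds the same cores in mirror image.

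Levels are in TPM, which counts transcripts after division by gene length and scales each library to the same total, so levels of different genes can be compared. In all 9 genes each Paro/Neo heart lay above each vehicle heart. Of 12409 genes that reached 1 TPM in 3 or more libraries, 6.04% had all Paro/Neo hearts above all vehicle hearts; since the 9 were chosen on this contrast, nothing is read from their count. The ratio of group means ran from 2.12 in Oasl2 to 6.84 in Ifit1, with a median of 3.12. All 9 passed the filter on low values, Oas1a only through the Paro/Neo hearts. The median log2 change of the 9 was 1.28 on the log2(TPM + 1) scale, against -0.02 over all genes tested. In bulk ventricle, more cells that express a gene cannot be told apart from more RNA per cell.

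Ifit1, which recognises RNA caps that lack host methylation, was at 43.3, 23.2 and 38.98 TPM in Paro/Neo hearts 1 to 3, against 4.68, 5.42 and 5.32 TPM in vehicle hearts 1 to 3. The means were 35.1 ± 10.6 TPM in Paro/Neo and 5.14 ± 0.404 TPM in vehicle hearts (SD, n = 3 each). The log2 change was 2.51 ± 0.22, where the error, here and for the other genes, is the moderated SE. The vehicle hearts were nearly alike, and the lowest Paro/Neo heart, the second, was still 4.51 times the vehicle mean. Ifit2, whose human counterpart forms complexes with IFIT1 and IFIT3, was at 41.7, 27.8 and 30.8 TPM in Paro/Neo hearts and 12.6, 14.6 and 17.9 TPM in vehicle hearts (log2 change 1.09 ± 0.18). Ifit2 was the most abundant of the 9 in vehicle hearts and had the second smallest ratio of means, 2.22.

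Ifit3, which stabilises Ifit1 on RNA in human cells, was at 30.9, 21.2 and 36.9 TPM in Paro/Neo hearts, against 8.92, 11.97 and 7.64 TPM in vehicle hearts. The log2 change was 1.53 ± 0.22, and here the third Paro/Neo heart was the highest. Its copy I830012O16Rik was at 14.9, 8.61 and 14.1 TPM in Paro/Neo hearts and 2.97, 3.55 and 3.94 TPM in vehicle hearts, a log2 change of 1.56 ± 0.20. Of the distinct runs of 76 bases, the read length, in the annotated transcripts of Ifit3, 40.7% also occur in Ifit3b, and 35.3% of those of Ifit3b occur in Ifit3. How the counting assigned reads from the shared 680 runs is not given in the sources used here, so the split of signal between Ifit3 and I830012O16Rik is uncertain. For Ifit1 the share of runs found in another gene was 5.11%, all of it in Ifit1bl2, and for Ifit2 it was 0.

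Isg15 was at 24.0, 14.2 and 12.7 TPM in Paro/Neo hearts and 5.82, 7.33 and 5.38 TPM in vehicle hearts, with a log2 change of 1.28 ± 0.23. The first Paro/Neo heart stood well above the other Paro/Neo hearts, at 3.89 times the vehicle mean against 2.30 and 2.05 times. These levels rest on few reads, at least 147, 72 and 62 in Paro/Neo hearts and 36, 38 and 20 in vehicle hearts. Usp18, which removes Isg15 from its targets, was at 12.3, 8.69 and 11.9 TPM in Paro/Neo hearts, against 2.48, 3.29 and 4.13 TPM in vehicle hearts. Its log2 change was 1.48 ± 0.19, and its Paro/Neo hearts had the smallest relative spread of the 9 genes, an SD of 17.9% of the mean. Usp18 too rests on few reads, at least 176, 103 and 136 in Paro/Neo hearts and 36, 40 and 36 in vehicle hearts. Neither gene shares a run of 76 bases with another annotated transcript. A gene model named Gm44148 lies on the opposite strand within Usp18, and whether the counting used strand is not given in the sources used here.

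Rsad2 was at 22.9, 12.99 and 17.9 TPM in Paro/Neo hearts and 4.97, 6.94 and 8.33 TPM in vehicle hearts, a log2 change of 1.28 ± 0.23. Oasl2, in contrast to the others, was lowest in the first Paro/Neo heart, at 7.77, 11.5 and 11.4 TPM in Paro/Neo hearts 1 to 3, against 4.24, 5.16 and 5.06 TPM in vehicle hearts. Its log2 change was 0.93 ± 0.17. Oas1a was the least abundant of the 9, at 2.75, 1.35 and 1.88 TPM in Paro/Neo hearts and 0.582, 0.927 and 0.323 TPM in vehicle hearts. At least 42, 17 and 23 reads stood behind the Paro/Neo values of Oas1a and 9, 12 and 3 reads behind its vehicle values. The log2 change of Oas1a, 0.88 ± 0.22, is low next to its ratio of means of 3.26 because a pseudocount of 1 TPM exceeds the vehicle levels; with a pseudocount of 0.1 TPM it was 1.59. Of the 76-base runs of Oas1a, 47.3% also occur in Oas1g, so its level is uncertain in the same way as those of Ifit3 and I830012O16Rik.

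**Figure D2:**
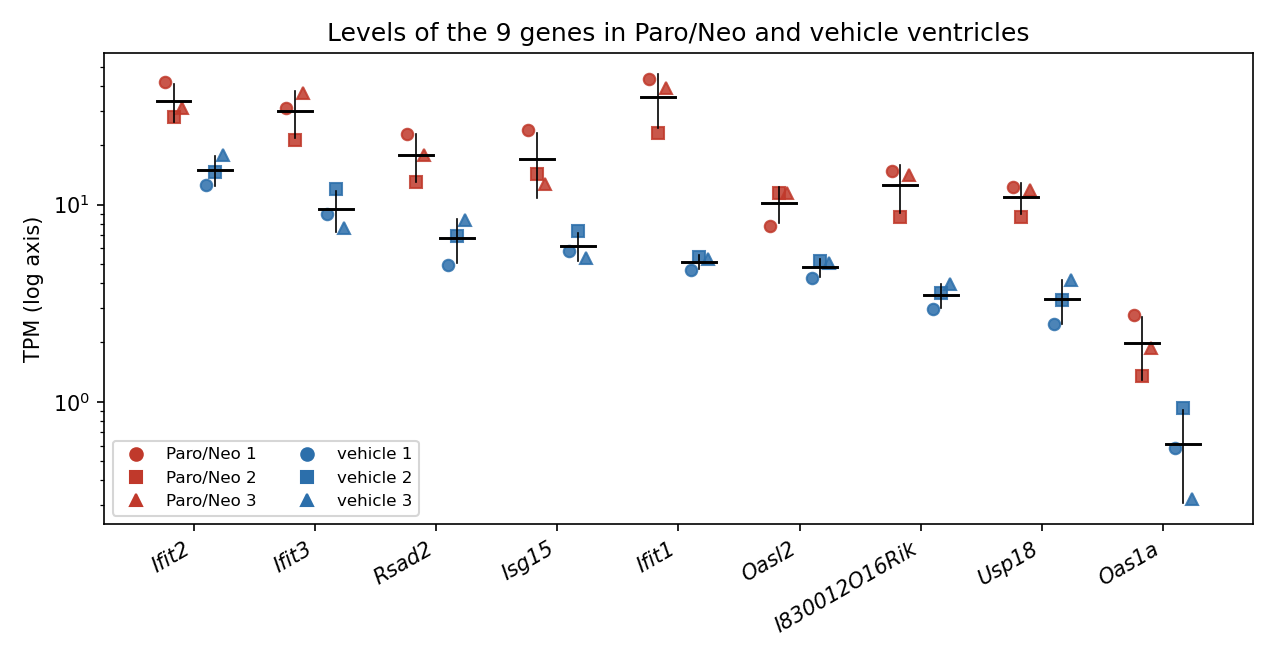
TPM (log axis) of each gene in Paro/Neo hearts (red, left) and vehicle hearts (blue, right), 1 symbol per heart, with the mean (bar) and SD (line) of 3 hearts. In each of the 9 genes the 3 red points lie above the 3 blue points, from Oas1a under 3 TPM to Ifit1 at up to 43.3 TPM.

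The order of the levels differed between the groups. In Paro/Neo hearts Ifit1 was first at 35.1 TPM, followed by Ifit2 at 33.4 and Ifit3 at 29.7, then Rsad2 at 17.9, Isg15 at 16.98, I830012O16Rik at 12.5, Usp18 at 10.9, Oasl2 at 10.2 and Oas1a at 1.99 TPM. Each neighbouring pair in this order overlapped in range except Oasl2 and Oas1a. In vehicle hearts Ifit2 was first at 15.04 TPM and did not overlap the next, Ifit3 at 9.51. Rsad2 at 6.75, Isg15 at 6.18, Ifit1 at 5.14 and Oasl2 at 4.82 TPM followed, each overlapping its neighbour. I830012O16Rik at 3.49 and Usp18 at 3.30 TPM overlapped each other but not Oasl2, and Oas1a was last at 0.611 TPM. Set against all features of the table, Ifit1 stood above 82.3% of them in Paro/Neo and above 50.2% in vehicle hearts, while Oas1a stood above 38.7% in Paro/Neo and 28.1% in vehicle hearts.

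Summed over the 9 genes, the level was 200.5, 129.6 and 176.5 TPM in Paro/Neo hearts, against 47.3, 59.1 and 58.0 TPM in vehicle hearts, a ratio of means of 3.08. Ifit1 made up 20.5% ± 2.30 of this sum in Paro/Neo and 9.40% ± 0.415 in vehicle hearts (SD, n = 3 each), and the groups did not overlap. Ifit2 made up 19.9% ± 2.17 in Paro/Neo and 27.4% ± 3.19 in vehicle hearts, again without overlap. Ifit3 stayed near the same share, 17.6% ± 2.95 in Paro/Neo and 17.4% ± 3.76 in vehicle hearts, and so did Oas1a, Usp18 and Isg15 within their spread. The share of Oasl2 was 3.87%, 8.86% and 6.47% in Paro/Neo hearts 1 to 3, against 8.72% to 8.97% in vehicle hearts, which the second Paro/Neo heart overlapped. These shares come from the contrast that chose the genes and are not tested.

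**Figure D3:**
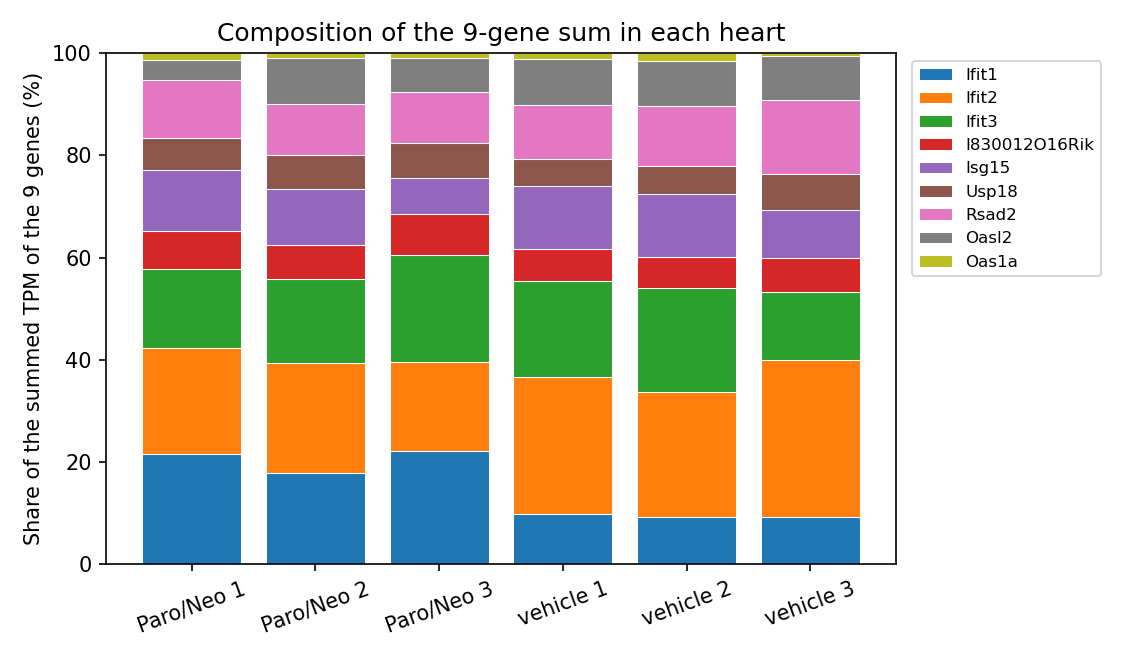
Share of the summed TPM of the 9 genes taken by each gene (percent, stacked), 1 bar per heart, Paro/Neo at the left. Ifit1 (lowest block) takes 17.9% to 22.1% in Paro/Neo hearts and 9.16% to 9.88% in vehicle hearts.

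The 3 Paro/Neo hearts had much the same order from gene to gene. The first was the highest of the 3 in 7 of the 9 genes, and the second was the lowest in 7 of the 9. The exceptions were Ifit3, highest in the third heart, Isg15, lowest in the third, and Oasl2, which was highest in the second heart and lowest in the first. Among vehicle hearts the first was the lowest in 6 genes and the third in 3. The first Paro/Neo library also stood apart over all genes tested, with a mean correlation of 0.976 with the other libraries, against 0.981 to 0.985 for those. Without it the log2 changes of the 9 ran from 0.71 in Oas1a to 2.34 in Ifit1, with a median of 1.10. Inferred from the steps of the TPM values, the depth per library was at least 9556387 to 15969980 reads, and both ends of this range are vehicle hearts.

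**Figure D4:**
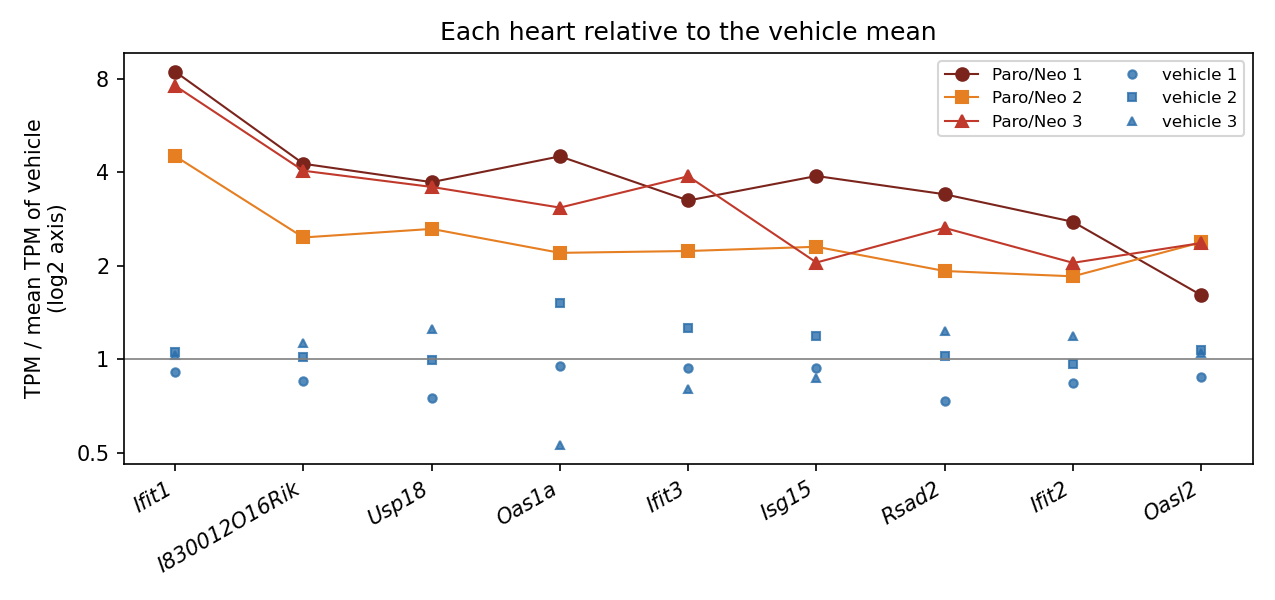
TPM of each heart divided by the vehicle mean of the gene (log2 axis), with Paro/Neo hearts as joined red to orange symbols and vehicle hearts as blue symbols around 1. Ifit1 reaches 4.51 to 8.43 in Paro/Neo hearts, and Oasl2 is the gene in which the first Paro/Neo heart, at 1.61, is lowest.

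A further 60 genes of the pathway were listed in 8 groups, and 30 of the 33 in the table were high enough to test (limma on log2(TPM + 1), Benjamini-Hochberg adjustment over all 12409 genes, threshold 0.05). Of these 30, 1 passed the threshold as higher and 0 as lower, with 12 at an unadjusted p under 0.05. Over all genes tested 0.121% passed as higher, and 7.61% had an unadjusted p under 0.05 in either direction, the background for all such counts given here. In 11 of the 30 genes each Paro/Neo heart lay above each vehicle heart, where the background is 6.04%. The lists were written with earlier results of these data known, so their counts are not independent of the contrast. The median log2 change of the 30 was 0.14, with 20 higher and 10 lower. Of the 30, Oas1b, Oas2 and Oasl1 reached 1 TPM in 3 libraries only with the help of the Paro/Neo hearts, in which they are high, so that their passing the filter favoured a difference. Over the other 27 genes, 9 had an unadjusted p under 0.05, 8 had all Paro/Neo hearts above all vehicle hearts, and the median log2 change was 0.11.

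The gene that passed was Irf7, the factor that amplifies type I interferon production. Irf7 rose to 31.5, 19.8 and 22.7 TPM in Paro/Neo hearts, against 3.48, 5.26 and 5.14 TPM in vehicle hearts (log2 change 2.18 ± 0.20 SE, limma adjusted p = 0.0136). Irf7 lost the call with no filter on low values (adjusted p = 0.0536) and, with the filter applied anew after leaving out a library, without Paro/Neo heart 1 (0.0504), without Paro/Neo heart 3 (0.0621) or without vehicle heart 1 (0.0557). The ISGF3 subunits Irf9 and Stat2 did not pass, although in both the Paro/Neo hearts lay without overlap above the vehicle hearts. Irf9 was at 34.0 ± 9.23 TPM in Paro/Neo and 13.1 ± 1.71 TPM in vehicle hearts (SD, n = 3 each, limma adjusted p = 0.0793). Stat2 was at 8.83, 10.3 and 15.9 TPM in Paro/Neo hearts, against 5.42, 5.68 and 6.76 TPM in vehicle hearts (adjusted p = 0.299). Unlike most of the 9 genes, Stat2 was highest in the third Paro/Neo heart. The adjusted p of Irf9 ranged from 0.027 to 0.289 over the alternatives. Irf3, which starts interferon production, was at 14.9 ± 2.30 TPM in Paro/Neo and 15.2 ± 1.69 TPM in vehicle hearts. Irf1 was at 20.6 ± 6.94 TPM in Paro/Neo and 15.4 ± 1.42 TPM in vehicle hearts.

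Receptors and their kinases numbered 9, of which 0 passed (limma; 1 at an unadjusted p under 0.05) and the log2 changes lay between -0.21 and 0.23. Of the type I receptor subunits, Ifnar1 was at 10.1 ± 1.68 TPM in Paro/Neo and 9.35 ± 0.393 TPM in vehicle hearts. Ifnar2 was at 25.2 ± 4.20 TPM in Paro/Neo and 26.0 ± 0.398 TPM in vehicle hearts, so that the groups lay within their spread in both. The smallest p in this group belonged to Il10rb, a shared subunit of the receptor of type III interferons, at 240.7 ± 10.7 TPM in Paro/Neo and 204.7 ± 7.75 TPM in vehicle hearts (limma adjusted p = 0.59). Next came Ifngr1, a type II receptor subunit, at 67.0 ± 14.8 TPM in Paro/Neo and 76.5 ± 2.27 TPM in vehicle hearts (adjusted p = 0.772). The kinase Jak2 was at 28.1 ± 3.74 TPM in Paro/Neo and 25.9 ± 0.854 TPM in vehicle hearts (adjusted p = 0.831). Of the ligands, 0 of the 20 genes listed for type I and type III interferons were in the table under the symbols used. Their levels could thus not be analysed here. Ifng, the type II ligand, had 1, 0 and 1 reads in Paro/Neo hearts and 0, 1 and 0 reads in vehicle hearts, too few at this depth to show a difference.

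Enzymes that work with Isg15 gave unlike values. Uba7, the enzyme that activates Isg15, was at 11.3, 10.8 and 13.7 TPM in Paro/Neo hearts and 6.30, 6.97 and 7.46 TPM in vehicle hearts (log2 change 0.71 ± 0.13, limma adjusted p = 0.137). Herc6, the mouse ligase for Isg15, was at 4.80 ± 0.375 TPM in Paro/Neo and 2.93 ± 0.435 TPM in vehicle hearts (adjusted p = 0.299). Ube2l6, the conjugating enzyme between these steps, was at 27.2 ± 1.77 TPM in Paro/Neo and 28.7 ± 9.44 TPM in vehicle hearts, a log2 change of -0.02 ± 0.23, with the vehicle hearts spread from 18.4 to 36.96 TPM. Trim25, another ligase, was at 12.6 ± 1.03 TPM in Paro/Neo and 10.7 ± 1.47 TPM in vehicle hearts (adjusted p = 0.726). None of these 4 passed over all genes (limma; 2 at an unadjusted p under 0.05).

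The other Oas genes were low. Of the 8 genes of this list in the table, which include the phosphodiesterase Pde12, 6 could be tested and 0 passed (limma; 3 at an unadjusted p under 0.05, which are the 3 that passed the filter through the Paro/Neo hearts, so that nothing is read from this count). Oas2 was at 2.21, 1.97 and 2.52 TPM in Paro/Neo hearts and 0.727, 0.981 and 1.47 TPM in vehicle hearts (log2 change 0.66 ± 0.18, adjusted p = 0.379). Oasl1, the neighbour of Oasl2, was at 1.60 ± 0.630 TPM in Paro/Neo and 0.609 ± 0.199 TPM in vehicle hearts (adjusted p = 0.483). Oas1b was at 1.93 ± 0.757 TPM in Paro/Neo and 0.721 ± 0.244 TPM in vehicle hearts (adjusted p = 0.49). Oas3 had 10, 4 and 2 reads in Paro/Neo hearts and 0, 1 and 0 reads in vehicle hearts, and Oas1g had 10, 6 and 3 reads in Paro/Neo and 1, 1 and 2 reads in vehicle hearts.

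Within the Ifit cluster, relatives of Ifit1 lie between the 4 genes described and on the opposite strand. Ifit1bl2, listed as 2010002M12Rik, was at 8.71, 7.24 and 9.13 TPM in Paro/Neo hearts, against 8.38, 7.11 and 9.25 TPM in vehicle hearts, a log2 change of 0.02 ± 0.14. Ifit1bl1, listed as Gm14446, was at 10.1, 9.31 and 13.8 TPM in Paro/Neo hearts and 15.2, 8.72 and 13.5 TPM in vehicle hearts, a log2 change of -0.14 ± 0.22. The groups overlapped in both genes, and neither passed (limma; 0 at an unadjusted p under 0.05). The annotated starts of Ifit1 and Ifit1bl2 used here point away from each other with 145 bases between them. The 2 ISRE cores printed for Ifit1, at 34640785 to 34640794 and 34640804 to 34640813, are also those of Ifit1bl2. RefSeq's model of Ifit1bl2 reaches to 34640827, so both cores lie within it. Ifit1 and Ifit1bl2 thus share these cores in the sequence, and their log2 changes were 2.51 and 0.02; the difference between the genes was not tested. RefSeq's model of Ifit1bl1 spans 34592888 to 34662981 on the reverse strand, over I830012O16Rik, Ifit1bl2 and Ifit1, so without strand in the counting reads of these genes could be mixed.

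Cmpk2, a nucleotide kinase whose gene lies next to Rsad2, was at 9.65, 10.3 and 10.4 TPM in Paro/Neo hearts, against 5.78, 5.63 and 5.68 TPM in vehicle hearts (log2 change 0.73 ± 0.11, limma adjusted p = 0.0631). Hearts of 1 group were nearly alike in this gene, and its adjusted p ranged from 0.0231 to 0.243 over the alternatives. Vapa, a membrane protein bound by viperin in human cells, was at 153.4 ± 14.9 TPM in Paro/Neo and 163.0 ± 13.0 TPM in vehicle hearts, and the tubulin gene Tuba1a was at 45.5 ± 4.84 TPM in Paro/Neo and 69.5 ± 15.1 TPM in vehicle hearts (adjusted p = 0.427). Of 28 features within 100000 bases of 1 of the 9 genes, 21 could be tested and 0 passed (limma; 5 at an unadjusted p under 0.05). These 5 include Cmpk2, Oasl1 and Oas1b, already counted among the pathway genes. Oasl1 and Oas1b passed the filter only through the Paro/Neo hearts. Of the 21, 9 were higher and 12 lower, and their median was -0.05 on the log2 scale.

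**Figure D5:**
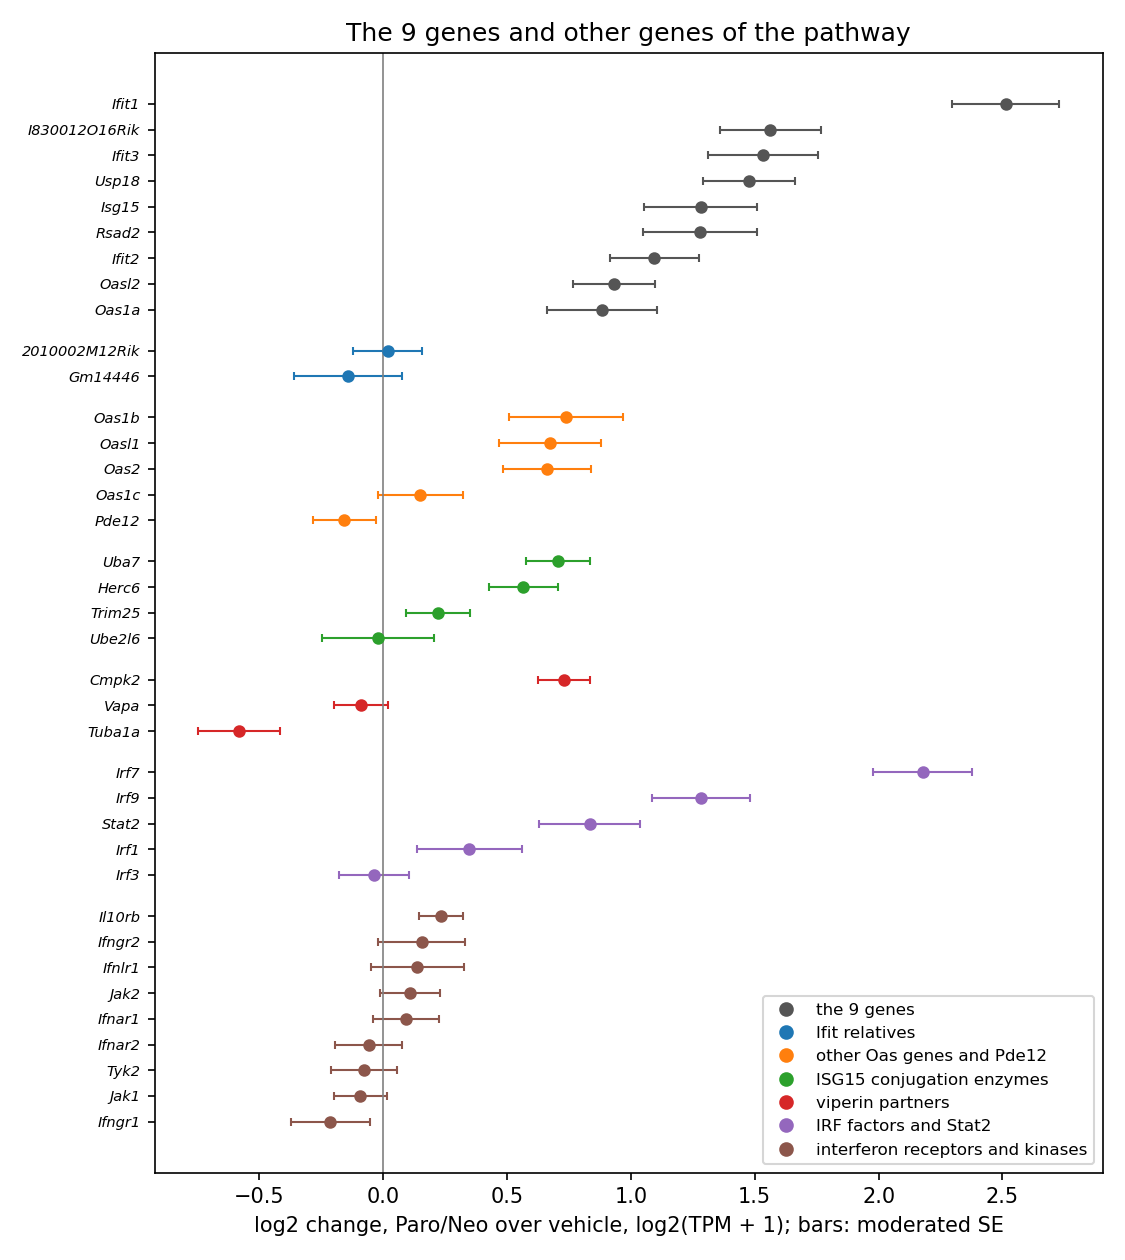
Log2 change (points) with its moderated SE (bars) of Paro/Neo over vehicle hearts on the log2(TPM + 1) scale, for the 9 genes (grey, top) and 28 of the 30 tested genes of the pathway, in 6 groups. Irf7 at 2.18 is the one coloured gene past the threshold, while the 9 receptors and kinases lie between -0.21 and 0.23.

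The genes outside the 9 whose levels over the 6 hearts were most like the mean profile of the 9 were, by Pearson's r on log2(TPM + 1) among 12350 features, Parp9 (0.996), Irf7 (0.996), Ccl12 (0.994), Zbp1 (0.987), B2m (0.986), Trim21 (0.985), Slfn2 (0.984), Ctss (0.982), Xaf1 (0.982) and Tnfsf10 (0.982). With 6 hearts that fall into 2 groups, such values mostly reflect the difference between the groups, and all genes share the libraries. Parp9, an ADP-ribosyltransferase family member, was at 36.1, 28.6 and 34.1 TPM in Paro/Neo hearts and 19.2, 20.3 and 19.8 TPM in vehicle hearts. Its order among Paro/Neo hearts, first highest and second lowest, was that of most of the 9 genes. Since Parp9 was picked for likeness over these same hearts, nothing is read from this order. Among the 9 themselves, the correlation of each gene with the mean of the other 8 was lowest in Oasl2, at 0.831, and highest in Ifit1, at 0.995.

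Markers of heart muscle were present as labelled: 7 of 7 cardiomyocyte markers were in the table, summing to 112306 to 142931 TPM in Paro/Neo and 121686 to 130956 TPM in vehicle hearts, led by the ventricular light chain Myl2. The summed immune cell markers were compared as levels, without a test of the sums. The 5 neutrophil markers in the table, led by S100a9, summed to 22.1 to 24.5 TPM in Paro/Neo and 6.89 to 17.7 TPM in vehicle hearts, with Mpo at 0 in all libraries. Nearly all of this sum was S100a9 and S100a8. S100a8 was at 11.0, 10.3 and 9.06 TPM in Paro/Neo hearts, against 2.80, 5.21 and 4.67 TPM in vehicle hearts (limma adjusted p = 0.113). Cxcr2 and Retnlg were low and overlapped between the groups. The 13 lymphocyte and NK cell markers summed to 6.55 to 13.5 TPM in Paro/Neo and 2.49 to 5.85 TPM in vehicle hearts, led by Gzma, and 1 of them was high enough to test. Neither sum overlapped between the groups, although the leading genes did, S100a9 with 11.1 TPM in Paro/Neo heart 2 against 11.7 TPM in vehicle heart 2 and Gzma with 1.87 against 2.33 TPM in the same hearts. Gzmb, among the lymphocyte and NK cell markers, had 4, 3 and 15 reads in Paro/Neo hearts and 0 in all vehicle hearts. With so few reads, the vehicle values say little at this depth. The sums of the 11 macrophage and monocyte markers in the table, to which Lyz2 gave the most, overlapped, at 681.6 to 726.2 TPM in Paro/Neo and 581.5 to 696.0 TPM in vehicle hearts. Of these 11 markers 10 were higher and 1 lower by log2 change, with a median of 0.175 and 2 higher without overlap. Ptprc, the leukocyte antigen CD45, was 1 of these 2. It was at 7.13, 5.67 and 6.19 TPM in Paro/Neo hearts, against 2.85, 4.14 and 3.63 TPM in vehicle hearts (limma adjusted p = 0.236). The lower marker, Cd68, was at 9.51, 14.9 and 15.5 TPM in Paro/Neo hearts, against 16.3, 17.1 and 16.1 TPM in vehicle hearts, also without overlap (limma adjusted p = 0.713). The sums of 3 markers of plasmacytoid dendritic cells, a main source of type I interferon, overlapped too. They were at 0.755 to 1.78 TPM in Paro/Neo and 1.38 to 2.05 TPM in vehicle hearts, led by Siglech. The 7 endothelial markers, led by Emcn, summed to 382.2 to 516.2 TPM in Paro/Neo and 508.9 to 582.8 TPM in vehicle hearts, and the 7 fibroblast markers, led by Dcn, to 2179 to 2431 TPM in Paro/Neo and 2452 to 2559 TPM in vehicle hearts. The endothelial sums overlapped, with 6 of 7 markers lower, and the fibroblast sums, with 7 of 7 markers lower, did not. The fibroblast markers differed in size of change. Dcn, Lum and Pdgfra overlapped between the groups, with log2 changes of -0.018, -0.035 and -0.111. Col1a1, Col1a2, Col3a1 and Tcf21 did not overlap, with log2 changes of -0.83, -0.78, -0.82 and -0.30. No marker passed the threshold over all genes tested (limma; 1 macrophage, 1 neutrophil, 1 endothelial and 3 fibroblast markers had an unadjusted p under 0.05), and the part of other cell types in the levels of the 9 genes was not tested.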

How the data were processed

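The authors deposited 1 table of TPM values with a column per mouse. The build was mm10, and STAR 2.5.3a, featureCounts, Subread, edgeR and FastQC 0.11.5 are named, per the submitters' processing notes. Annotation, strand setting and any feature filter: not given in the sources used here. TPM sums to the same total in each library, so a gain in abundant genes lowers the rest.

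Groups come from the sample titles. Genes that reached 1 TPM in 3 or more libraries, 12409 in all, were fitted on log2(TPM + 1) with limma 3.58.1 in R 4.3.3 (eBayes with an intensity trend, two-sided, Benjamini-Hochberg adjustment, threshold 0.05). This scale understates changes of low genes. The 9 genes and the lists were chosen with earlier results of these data known. Named are the 9 genes, pathway genes past the threshold, up to 3 per group with the smallest p, the 10 most alike genes, and per marker list its most abundant gene. Stat2, Irf1, Irf3, Ifnar1, Ifnar2, Ube2l6, Oas1c, Oas3, Oas1g, Mpo, S100a8, Cxcr2, Retnlg, Ptprc, Cd68, Gzmb and the fibroblast markers other than Dcn were added after their values were seen. A few listed genes enter the counts but are not reported here by name.

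Reads behind a value were inferred from ratios of TPM between libraries: all 17574 features above 0 came out whole within 0.001 of a read. They are lower estimates, and they cover counting error only. An exact permutation test of 3 against 3 mice has a smallest p of 0.10 and was not used. The fit and the read inference were tested on simulated data. Gene positions are from GENCODE M21, promoters from RefSeq on GRCm38.p6. Alternatives were other pseudocounts, filters, scalings, weights, voom, a replicate block and leaving out each library.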

Additional observations from a re-analysis of the deposited data

How the results depend on the processing

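All 9 genes were higher in Paro/Neo hearts in all 20 alternatives that held them, 176 of 176 log2 changes. Nothing is read from this count, since the 9 were chosen on this contrast. With no overlap between the groups, leaving out a library cannot turn the sign of a change. Oas1a, dropped by the filter at a mean of 5 TPM and by the filter applied anew without a Paro/Neo library, had the widest range, 0.71 to 1.67. The median log2 change of the 9 was 1.28, with a pseudocount of 0.1 it was 1.59 and with voom on inferred reads 1.62, and leaving out a library gave 1.10 to 1.55. Genes called over all genes tested numbered 15 higher and 2 lower. They numbered 5 and 1 with no filter, 19 and 1 at a mean of 5 TPM or more, 17 and 1 with quantile normalization and 22 and 4 with array weights. Leaving out a library gave 4 to 23 higher and 0 to 4 lower. With the filter also applied anew, chosen after seeing the data, limma called 0 genes higher when Paro/Neo heart 1 was left out (894 in either direction had an unadjusted p under 0.05), 19 when it was heart 2 and 0 when it was heart 3 (1121 unadjusted). Leaving out vehicle hearts 1 to 3 in turn gave 1, 8 and 6; lower were 0 to 4. The other pathway genes called higher, 1 in all libraries, were 0 with no filter and 2 with median-ratio scaling, quantile normalization, array weights or voom, and 0 to 2 with a library left out. Their median of 0.14 was 0.035 with array weights and 0.07 to 0.23 with a library left out. The log2 change of 2010002M12Rik was -0.074 with array weights and -0.073 to 0.108 with a library left out, and with the filter anew -0.011 without Paro/Neo heart 1, -0.042 without Paro/Neo heart 3 and -0.073 without vehicle heart 2. That of Gm14446 was -0.361 to 0.008 with a library left out, the positive value without vehicle replicate 1 under either filter. The cause of these differences was not tested.

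No label says that replicate numbers pair the samples. The deviations of same-numbered hearts correlated at -0.0528, -0.0356 and -0.122 across genes, and those of differently numbered hearts at -0.0519 to 0.099. With 3 hearts per group this does not settle whether same-numbered hearts share a litter or day. With the replicate block 25 genes were higher and 2 lower over all genes, and 2 of the other pathway genes passed. Isg15 and Oas1a are limited by depth, with 3 to 147 reads per library. Other genes of the 9 also rest on few reads in vehicle hearts. Usp18 had at least 36, 40 and 36 reads there and I830012O16Rik at least 49, 49 and 39.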
